A study of Rattus norvegicus with 15 samples.

Results

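Liver sinusoidal endothelial markers were followed in rat liver RNA: the scavenger and lectin receptors Stab1, Stab2, Lyve1 and Clec4g, the growth factor receptors Kdr and Tek with the phosphatase Ptprb, the BMP co-receptor Eng, the junction protein Pecam1 and the secreted protein Egfl7. These 10 genes were taken by symbol from the deposited table of 21576 genes, where 10 of 10 were found and 10 of 10 passed the filter on low counts. The rule uses gene names alone, and the markers were chosen with earlier results of these data known. The livers were from male Sprague-Dawley rats in 3 groups of 5 libraries. The CON group was kept on normal chow. The HFD group had a lipid-raising feed of 66% base forage, 16.7% sucrose, 8.3% yolk, 7% lard, 2% cholesterol, 0.3% sodium cholate and 0.2% propylthiouracil, a drug that blocks thyroid hormone synthesis, and was given saline over the last 4 weeks. The ZXD group shared that feed, propylthiouracil included, and received the herbal preparation Zexie Decoction at 2.2 g per kg per day over the same 4 weeks, after 4 weeks of feed alone. HFD and CON therefore differ in propylthiouracil as well as in lipids, and the effects of these ingredients cannot be told apart. The labels give 10 rats in each group, not which rats the libraries came from and no age, so every p-value rests on the spread among these 15 libraries alone, and that spread may be technical.

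Liver sinusoids are the capillaries of the liver lobule. Their endothelial cells carry open pores and lack a firm basement membrane, and they clear waste macromolecules such as hyaluronan from the blood through scavenger receptors. Vascular endothelial growth factor made by hepatocytes signals through Kdr and helps to keep the pores open. Stab1 and Lyve1 are also made by some macrophages, Lyve1 also by lymphatic endothelium, and Pecam1, Egfl7, Eng, Tek, Ptprb and Kdr by endothelial cells of most vessels. Other sources of these genes, blood cells among them, are not listed here. In RNA of whole liver, fewer endothelial cells and less RNA per endothelial cell cannot be told apart.

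Total counts were 12552449 to 14228052 per library, and a count of 3 equalled 0.183 to 0.285 CPM (counts scaled to a common library size with TMM factors, which correct for a few genes taking up a large share of the reads). Each of the 10 markers was detected in all 15 libraries, with 56 to 2408 counts. Libraries differed in how long transcripts were represented against short ones. The median log2 CPM, centred gene by gene, of 1734 genes over 5000 bases minus that of 1202 genes under 1000 bases lay between -0.23 and 0.16 in CON, between -0.33 and 0.13 in HFD and between -0.02 and 0.23 in ZXD. It was below 0 in CON 2, CON 3, CON 5, HFD 2, HFD 3, HFD 5 and ZXD 3. Its values are given with the results below, because several of the same libraries held the lowest marker levels.

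The sum of the 10 markers was 164 to 538 CPM in CON, 149 to 439 CPM in HFD and 490 to 703 CPM in ZXD. Against CON, 1 marker rose in HFD (Egfl7) and 3 rose in ZXD (Egfl7, Lyve1 and Stab2), and 0 fell in either group, by edgeR's quasi-likelihood test at an adjusted p under 0.05 over all 13163 genes tested. Between ZXD and HFD 0 of 10 passed. The backgrounds for these counts are given with each comparison.

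**Figure D1:**
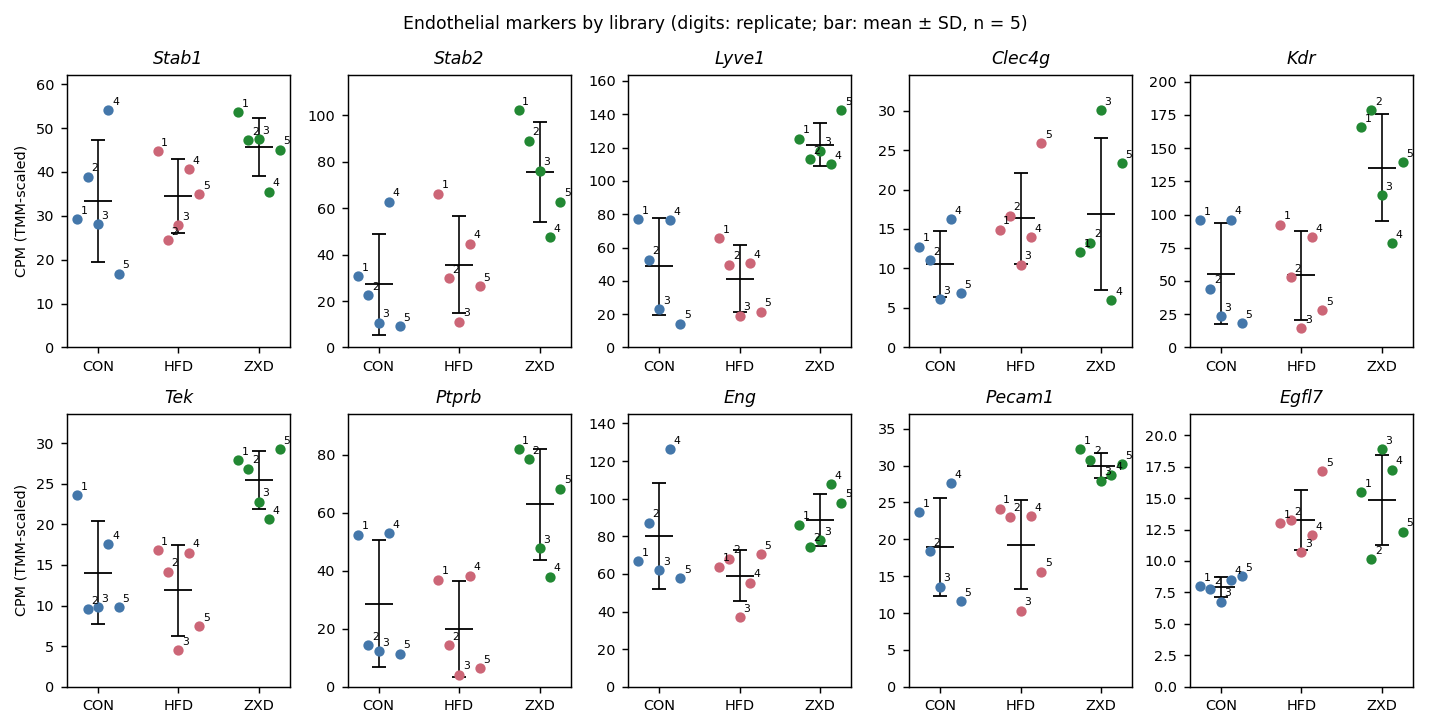
CPM (TMM-scaled, linear axis from 0) of each of the 10 markers, 1 point per library with its replicate number beside it, and bars for the group mean ± SD (n = 5). The 5 ZXD libraries lie above the other 10 for Lyve1 and Pecam1, and the 5 CON libraries lie below the other 10 for Egfl7.

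Lyve1, a hyaluronan-binding receptor, was at 77.1, 52.8, 22.9, 76.3 and 14.2 CPM in CON 1 to CON 5. It was at 65.7, 49.6, 19.0, 50.7 and 21.5 CPM in HFD 1 to HFD 5, and at 125, 113, 118, 110 and 142 CPM in ZXD 1 to ZXD 5. Each ZXD library was above each of the other 10, while CON and HFD covered the same range. The group means were 48.7 ± 29.3 CPM in CON, 41.3 ± 20.3 CPM in HFD and 122 ± 12.9 CPM in ZXD (SD, n = 5 each). Lyve1 rose in ZXD against CON by 1.32 ± 0.43 (log2 fold change and SE, adjusted p = 0.0293, edgeR). Against HFD its log2 fold change was 1.56 ± 0.43 with a 95% interval of 0.64 to 2.48, which did not pass (adjusted p = 0.155, edgeR). The ZXD against CON call was lost without CON 2, CON 3, CON 5 or ZXD 5 (adjusted p 0.053 to 0.073 by edgeR), with differences of 1.09 to 1.34.

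Stab2, the main scavenger receptor for hyaluronan on these cells, was at 30.7, 22.6, 10.6, 62.8 and 9.03 CPM in CON 1 to CON 5. It was at 66.2, 29.9, 11.1, 44.6 and 26.4 CPM in HFD 1 to HFD 5, and at 102, 89.0, 76.0, 47.6 and 62.8 CPM in ZXD 1 to ZXD 5. ZXD 4 lay below CON 4 and HFD 1, so the groups overlapped. The means were 27.1 ± 21.8, 35.6 ± 20.8 and 75.5 ± 21.4 CPM in CON, HFD and ZXD. Stab2 rose in ZXD against CON by 1.48 ± 0.51 on the log2 scale (adjusted p = 0.0377, edgeR). The difference from HFD was 1.08 ± 0.50 (adjusted p = 0.297, edgeR). Leaving out CON 1, CON 2, CON 3, CON 5, ZXD 1, ZXD 2 or ZXD 3 ended the Stab2 call, with adjusted p of 0.0523 to 0.0892 by edgeR and differences of 1.25 to 1.52.

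Stab1, a related scavenger receptor, moved less than Stab2 in its means: 33.4 ± 14.0 CPM in CON, 34.5 ± 8.46 CPM in HFD and 45.8 ± 6.60 CPM in ZXD. Its libraries ran from 16.8 CPM in CON 5 to 54.1 CPM in CON 4, which enclosed all HFD and ZXD values. Its log2 differences were 0.05 for HFD against CON, 0.41 for ZXD against HFD and 0.45 for ZXD against CON, and 0 of the 3 passed the edgeR test (adjusted p 0.178 to 0.912).

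Clec4g, a C-type lectin of the sinusoidal lining, was at 12.7, 11.1, 6.08, 16.2 and 6.90 CPM in CON 1 to CON 5. It was at 14.9, 16.7, 10.5, 14.0 and 25.8 CPM in HFD 1 to HFD 5, and at 12.0, 13.2, 30.1, 5.98 and 23.3 CPM in ZXD 1 to ZXD 5. ZXD 4 held the lowest Clec4g value of the 15 libraries and ZXD 3 the highest. The log2 differences from CON were 0.63 in HFD and 0.67 in ZXD (adjusted p 0.255 and 0.198, edgeR), and ZXD against HFD was 0.05 (adjusted p = 0.96, edgeR).

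Of the 10 markers, 7 were found among RefSeq promoter windows of the assembly GRCr8, each 250 bases upstream to 50 bases downstream of a start, with 2 windows for Egfl7. The 4 windows of the 3 markers that passed a test are shown, because the comparisons with CON turn on these genes, with capitals marking CAGGAAG, a sequence of the kind bound by ETS factors. The build of the deposited table is not given, so these positions belong to GRCr8 alone.
Lyve1, chr1:174410928-174411227, minus strand: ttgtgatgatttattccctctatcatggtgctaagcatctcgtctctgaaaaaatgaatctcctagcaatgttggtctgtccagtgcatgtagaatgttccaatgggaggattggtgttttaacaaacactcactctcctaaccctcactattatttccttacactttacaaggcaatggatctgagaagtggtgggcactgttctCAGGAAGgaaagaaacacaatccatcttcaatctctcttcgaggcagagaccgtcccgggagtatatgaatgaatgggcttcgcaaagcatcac
Stab2, chr7:23320513-23320812, minus strand: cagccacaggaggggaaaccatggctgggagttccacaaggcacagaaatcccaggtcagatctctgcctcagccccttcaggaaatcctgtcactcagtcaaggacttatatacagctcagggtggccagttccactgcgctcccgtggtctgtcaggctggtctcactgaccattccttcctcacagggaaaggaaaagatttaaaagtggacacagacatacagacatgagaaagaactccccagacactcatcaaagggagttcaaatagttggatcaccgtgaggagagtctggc
Egfl7, upstream start, chr3:29805381-29805680, plus strand: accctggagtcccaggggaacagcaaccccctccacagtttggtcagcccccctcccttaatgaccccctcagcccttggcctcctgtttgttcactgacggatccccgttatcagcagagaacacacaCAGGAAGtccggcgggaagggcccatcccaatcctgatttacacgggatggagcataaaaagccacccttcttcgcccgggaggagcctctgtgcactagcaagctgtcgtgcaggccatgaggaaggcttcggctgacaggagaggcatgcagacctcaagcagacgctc
Egfl7, downstream start, chr3:29808051-29808350, plus strand: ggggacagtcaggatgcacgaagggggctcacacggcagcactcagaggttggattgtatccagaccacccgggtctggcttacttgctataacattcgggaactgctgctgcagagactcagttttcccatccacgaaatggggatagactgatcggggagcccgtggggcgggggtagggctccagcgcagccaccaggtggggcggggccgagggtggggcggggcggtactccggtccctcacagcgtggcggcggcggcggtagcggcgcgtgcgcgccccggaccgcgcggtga
On both strands, CAGGAAG stood in 2 of the 8 marker windows and in 12.5% of 33469 RefSeq promoter windows of this length. It began at -44 in Lyve1 and at -121 in the upstream window of Egfl7, counted from the start, and the downstream Egfl7 window and that of Stab2 held none of the 4 motifs searched. The GATA-like AGATAA (11.6% of promoters) and the KLF-like CCACACCC (3.22%) stood in 0 of 8, and the SOX-like ACAATG (13.2%) in 1, that of Clec4g. These matches describe letters in the windows and nothing of binding.

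Kdr, the main VEGF receptor of blood vessels, was at 95.6, 44.2, 23.4, 96.0 and 18.1 CPM in CON 1 to CON 5. It was at 92.4, 52.8, 14.3, 83.1 and 28.2 CPM in HFD 1 to HFD 5, and at 166, 178, 114, 78.4 and 140 CPM in ZXD 1 to ZXD 5. In CON and HFD, libraries 1 and 4 were above 80 CPM and the other 3 of each group were below 55 CPM. ZXD 4, the lowest of its group, overlapped them. The log2 difference was -0.03 ± 0.52 for HFD against CON, with a sign that turned under other scalings (0.40 on library totals, 0.05 with upper-quartile factors). It was 1.32 ± 0.52 for ZXD against HFD and 1.29 ± 0.52 for ZXD against CON, and neither passed (adjusted p 0.232 and 0.0711, edgeR). The ZXD against CON difference passed with DESeq2 (adjusted p = 0.0335) and with edgeR on library totals (adjusted p = 0.0136).

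Tek, the angiopoietin receptor, was at 23.6, 9.54, 9.79, 17.6 and 9.79 CPM in CON 1 to CON 5. It was at 16.8, 14.2, 4.50, 16.5 and 7.46 CPM in HFD 1 to HFD 5, and at 27.9, 26.8, 22.8, 20.6 and 29.2 CPM in ZXD 1 to ZXD 5. ZXD did not overlap HFD, and CON 1 alone of the chow livers reached into the ZXD range. The log2 difference was 1.10 ± 0.34 for ZXD against HFD and 0.86 ± 0.34 for ZXD against CON (adjusted p 0.18 and 0.0642, edgeR). The latter passed under 5 other settings of scaling, groups in the fit or test (adjusted p 0.00604 to 0.0467).

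Ptprb, a phosphatase of endothelial cells that acts on Tek, had the widest spread of the 10 in HFD. It was at 52.4, 14.3, 12.3, 52.9 and 11.4 CPM in CON 1 to CON 5. It was at 36.9, 14.4, 4.14, 38.3 and 6.30 CPM in HFD 1 to HFD 5, and at 81.8, 78.3, 47.8, 38.0 and 68.3 CPM in ZXD 1 to ZXD 5. As for Kdr, libraries 1 and 4 of CON and of HFD were the high ones. Its log2 difference was 1.65 ± 0.61 for ZXD against HFD and 1.13 ± 0.60 for ZXD against CON (adjusted p 0.213 and 0.162, edgeR), and it was -0.52 ± 0.60 for HFD against CON (adjusted p = 0.558, edgeR).

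Ligands and partners of Kdr and Tek numbered 19, of which 14 were tested. In ZXD against CON 6 of the 14 rose and 1 fell, beside 17.9% of all genes that rose and 14.8% that fell, with a median log2 fold change of 0.89 against 0.03 over all genes. Nrp2, a co-receptor, rose from 4.83 CPM in CON to 35.2 CPM in ZXD (log2 fold change 2.87 ± 0.37, adjusted p = 0.000145, edgeR), and Nrp1, its relative, rose by 1.88 ± 0.45 (adjusted p = 0.00706, edgeR). Flt4, the receptor for VEGF-C, rose by 1.48 (adjusted p = 0.0191), the junction cadherin Cdh5 by 1.5 (adjusted p = 0.0121), and Tie1, the orphan relative of Tek, by 1.13 (adjusted p = 0.0257, edgeR). Sh2d2a, an adaptor that binds Kdr, was the other gene that rose, at low levels of 0.2703, 1.052 and 1.497 CPM in CON, HFD and ZXD. Of the 12 lymphocyte markers given below, 11 also rose in ZXD against CON. Among these, Cd3e went from 0.3582 to 3.09 CPM and Lck from 1.392 to 10.09 CPM. The part of lymphocytes in the rise of Sh2d2a was not tested, so it counts among the 6 by its listed role alone.

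Vegfa, the ligand of Kdr, moved the other way. It averaged 756 ± 166 CPM in CON, 522 ± 157 CPM in HFD and 403 ± 27.6 CPM in ZXD, and fell by 0.91 ± 0.20 on the log2 scale in ZXD against CON (adjusted p = 0.00508, edgeR). Its HFD against CON difference was -0.53 (adjusted p = 0.072, edgeR). Flt1, the other VEGF receptor, and Angpt1, the ligand of Tek, had differences of 1.12 and 0.66 for ZXD against CON that did not pass (adjusted p 0.077 and 0.15, edgeR), and Angpt2, with at most 43 counts in a library, was not tested. In HFD against CON 1 of the 14 rose and 0 fell, beside 10% and 10.9% of all genes. It was Nrp2 (log2 fold change 1.5, adjusted p = 0.0101, edgeR), with a median of 0.07 against 0.02 over all genes; the count became 2 without CON 2, ZXD 2 or ZXD 4.

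Eng, a co-receptor for BMP ligands, was at 66.7, 87.2, 62.0, 126 and 57.7 CPM in CON 1 to CON 5. It was at 63.9, 68.2, 37.0, 55.3 and 70.6 CPM in HFD 1 to HFD 5, and at 86.2, 74.4, 77.8, 108 and 97.8 CPM in ZXD 1 to ZXD 5. ZXD was above HFD in each library, and both overlapped CON. Its log2 difference was -0.44 ± 0.22 for HFD against CON, 0.59 ± 0.22 for ZXD against HFD and 0.15 ± 0.22 for ZXD against CON (adjusted p 0.157, 0.213 and 0.63, edgeR). On library totals the HFD against CON difference of Eng was -0.0048.

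Of 23 tested genes of the BMP and TGF-beta pathway around Eng, 4 rose and 1 fell in HFD against CON, beside 10% and 10.9% of all genes, with a median of 0.04 against 0.02. These shares are too near those of all genes to set the list apart. Id1, a target gene of BMP signals, rose from 5.01 to 32.6 CPM (log2 fold change 2.70 ± 0.49, adjusted p = 0.00215, edgeR), and Id2, Smad7 and Bmp4 were the others that rose. Gdf2, which encodes the Eng ligand BMP9, fell from 32.3 to 17.3 CPM, by 0.90 ± 0.21 on the log2 scale (adjusted p = 0.01, edgeR). The count of 4 became 2 without CON 2, CON 3, CON 4, CON 5 or HFD 2. In ZXD against CON 6 of 23 rose and 0 fell, beside 17.9% and 14.8% of all genes, with a median of 0.52 against 0.03: Id1 (2.17, adjusted p = 0.00511), Tgfb1 (2.02, adjusted p = 0.00704), Smad9, Smad6, Smad7 and Bmp2 (edgeR). Gdf2 was at 22.2 CPM in ZXD (-0.54, adjusted p = 0.0606), and the receptor Acvrl1 had a difference of 0.58 (adjusted p = 0.114, edgeR). Bmp10, the other high-affinity ligand, was at 4.33, 2.99 and 3.55 CPM in CON, HFD and ZXD and did not pass (adjusted p 0.223 to 0.691, edgeR).

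Pecam1, the junction protein known as CD31, was at 23.7, 18.4, 13.6, 27.6 and 11.6 CPM in CON 1 to CON 5. It was at 24.1, 23.1, 10.3, 23.1 and 15.6 CPM in HFD 1 to HFD 5, and at 32.2, 30.8, 27.9, 28.7 and 30.2 CPM in ZXD 1 to ZXD 5. Each ZXD value exceeded each CON and HFD value, and ZXD had the narrowest range of the 3 groups (coefficient of variation 5.64%, against 35.4% in CON and 31.4% in HFD). The log2 difference was 0.66 ± 0.25 for ZXD against CON and 0.64 ± 0.24 for ZXD against HFD, and neither passed (adjusted p 0.0507 and 0.222, edgeR). The first passed under 6 other settings of scaling, filter, groups in the fit or test (adjusted p 0.00239 to 0.0461) and without CON 1, CON 4 or HFD 3.

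Egfl7, a protein that endothelial cells secrete, was the marker with the steadiest levels in CON. It was at 7.99, 7.76, 6.75, 8.51 and 8.77 CPM in CON 1 to CON 5. It was at 13.0, 13.3, 10.7, 12.1 and 17.1 CPM in HFD 1 to HFD 5, and at 15.5, 10.1, 18.9, 17.3 and 12.3 CPM in ZXD 1 to ZXD 5. All 10 libraries of rats on the lipid-raising feed were above all 5 of chow-fed rats, while HFD and ZXD overlapped. Egfl7 rose by 0.73 ± 0.18 in HFD (95% interval 0.36 to 1.11, adjusted p = 0.0102) and by 0.90 ± 0.18 in ZXD against CON (95% interval 0.52 to 1.27, adjusted p = 0.00259, edgeR). Leaving out single libraries kept adjusted p at or below 0.0312 in both comparisons by edgeR. ZXD against HFD was 0.16 ± 0.17 (adjusted p = 0.639, edgeR).

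The rat Egfl7 gene also holds a microRNA known for its role in endothelial cells, which these RNA counts did not measure. Its mature RefSeq sequences are shown for orientation, with the seed, bases 2 to 8, in capitals.
rno-miR-126a-3p: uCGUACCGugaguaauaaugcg
rno-miR-126a-5p: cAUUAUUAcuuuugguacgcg

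**Figure D2:**
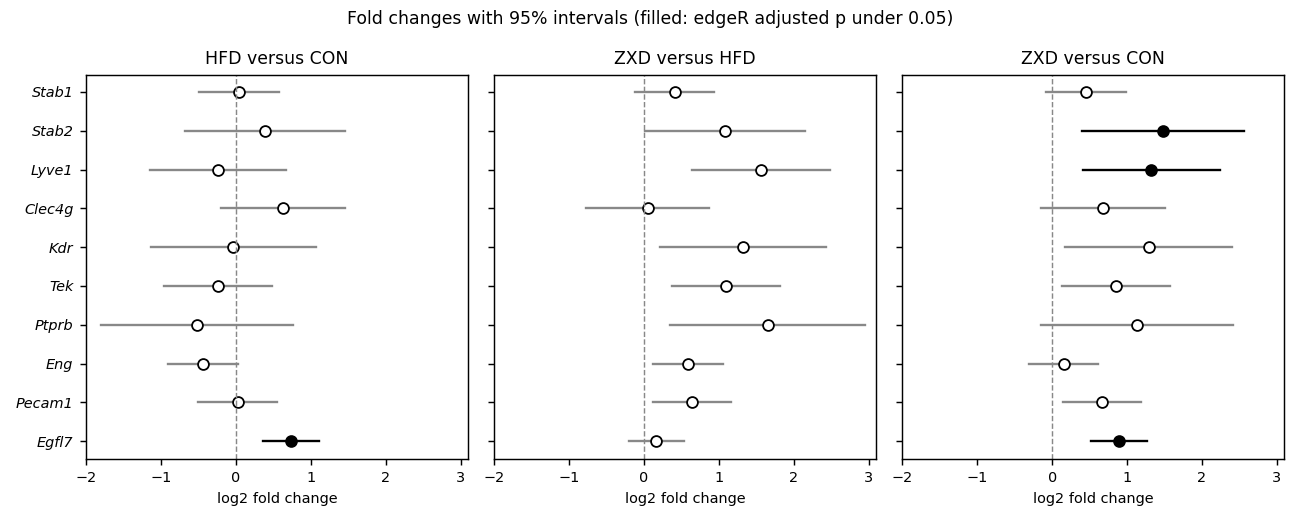
Log2 fold change of each marker in the 3 comparisons with its 95% interval, from edgeR's fit over all 15 libraries, with filled symbols for an adjusted p under 0.05. In HFD against CON the points lie on both sides of 0 (-0.52 to 0.73), while for ZXD they lie above 0 against HFD (0.05 to 1.65) and against CON (0.15 to 1.48).

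Set beside the whole table, 1 of 10 markers rose in HFD against CON where 10% of all genes rose and 10.9% fell, and 21% passed in all. The markers' median log2 fold change was -0.01, with 5 above 0 and 5 below, and all genes had a median of 0.02. The 1 marker whose groups did not overlap, Egfl7, stands beside 6.59% of genes higher without overlap. The share of markers that rose was that of all genes, and the share called in either direction was below it. On library totals without scaling factors the median of all genes was 0.44 (0.46 for ZXD against CON), and Lyve1 (0.20), Kdr (0.40) and Tek (0.19) turned from below to above 0.

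In ZXD against HFD 0 of 10 markers passed, as did 0 of 13163 genes by edgeR (0%). At an unadjusted p under 0.05, edgeR counted 7 of 10 markers (Stab2, Lyve1, Kdr, Tek, Eng, Ptprb and Pecam1), all higher, beside 16.5% of all genes and 9.84% higher. Lyve1, Tek, Eng and Pecam1, 4 of 10, were higher without overlap, beside 2.14% of all genes (1.53% were lower without overlap). The differences were above 0 for 10 of 10, with a median of 0.86 against 0.02 over all genes. Most markers moved together between libraries, so the marker counts in each comparison are not counts of independent genes. Clec4g turned below 0 with upper-quartile factors (-0.02). With limma voom 0 genes passed. DESeq2 called 348 genes and 1 marker, Lyve1 (adjusted p = 0.0219).

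In ZXD against CON 3 of 10 markers rose where 17.9% of all genes rose, 14.8% fell and 32.7% passed in all. Lyve1, Pecam1 and Egfl7, 3 of 10, were higher without overlap, beside 8.2% of all genes. At an unadjusted p under 0.05 edgeR counted 6 of 10, all higher, beside 43.7% of all genes and 24% higher. The 10 differences were above 0, with a median of 0.88 against 0.03 over all genes. The count of 3 became 1 when CON 2, CON 3 or CON 5 was left out, 5 when CON 1 or CON 4 was, and 6 when HFD 3 was. The comparison shares its libraries with both others, so the 3 sets of values are not independent of each other.

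Within groups the markers varied widely and mostly together. The SD of log2 CPM had a median over the 10 markers of 0.61 in CON, 0.66 in HFD and 0.29 in ZXD. The 5966 genes with mean levels in the markers' range, 12 to 81.6 CPM, had medians of 0.22, 0.26 and 0.23. Above the 90th percentile of these genes lay 8 markers in CON, 5 in HFD and 1 in ZXD. Kdr, for example, spanned 5.32-fold from lowest to highest library in CON, 6.45-fold in HFD and 2.28-fold in ZXD. For 8 of 10 markers, all but Clec4g and Egfl7, the SD in ZXD was below that in HFD and also below that in CON, where 54.9% and 46.3% of like-level genes did so.

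The same libraries held the extremes. CON 5 was lowest for 7 markers and CON 4 highest for 7. HFD 3 was lowest for 9 markers, all but Stab1, and HFD 1 highest for 6. ZXD 4 was lowest for 7. No library's value stood apart from its group by Dixon's criterion in 30 groups examined. That criterion looks for a single isolated value. It cannot flag a group split into high and low libraries, such as Kdr in CON (ratio 0.068, critical value 0.71).

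**Figure D3:**
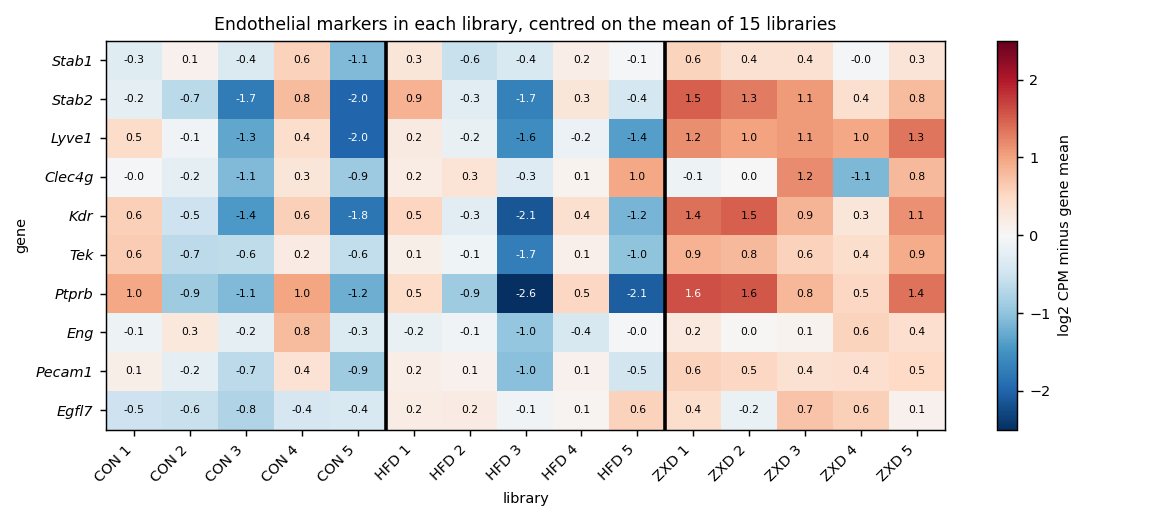
Log2 CPM of each marker in each library, centred on the marker's mean over all 15 libraries, with libraries in columns by group. CON 3, CON 5 and HFD 3 are low across most rows and the ZXD columns are high across most rows, while the Egfl7 row is below its mean in all 5 CON columns.

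After subtracting group means, each marker was compared with the mean of the other 9 over the 15 libraries. Pearson's r was 0.96 for Kdr, 0.96 for Pecam1, 0.96 for Stab2, 0.90 for Lyve1, 0.87 for Ptprb, 0.85 for Tek and 0.70 for Stab1. It was 0.59 for Eng, 0.45 for Clec4g and 0.04 for Egfl7. The points share libraries, depth and scaling factors, and r is given as a description. Egfl7, which passed in both comparisons with CON, was thus the marker whose libraries followed the other 9 least.

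The 10 genes that followed the markers' mean deviation most closely, among 9563 genes of at least 5 CPM, were Flt4 (r = 0.96), Fcgr2b (0.95), Tspan7 (0.94), Rasgrp3, Adgrf5 and Mmrn2 (each 0.93), Sort1 and Sdpr (each 0.92) and Flt1 and Cyyr1 (each 0.91). The median r of the 9563 genes was 0.03 and the 99th percentile 0.79. Fcgr2b, an Fc receptor of sinusoidal endothelium, averaged 41.0 ± 28.1 CPM in CON, 45.1 ± 22.6 CPM in HFD and 115 ± 11.4 CPM in ZXD, and it rose in ZXD against CON by 1.49 (adjusted p = 0.0237, edgeR). Tspan7, a membrane protein, averaged 40.7 ± 23.9, 35.3 ± 12.5 and 69.5 ± 5.25 CPM in the same order.

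The length measure moved with the marker levels in CON and in HFD, though not in each library. In CON it was 0.16 in libraries 1 and 4, the high ones for Kdr and Ptprb, and -0.23, -0.16 and -0.18 in libraries 2, 3 and 5. In HFD it was 0.07 and 0.13 in libraries 1 and 4 and -0.33, -0.29 and -0.25 in libraries 2, 3 and 5. CON 2, the lowest of CON at -0.23, and HFD 2, the lowest of HFD at -0.33, each had the middle marker sum of its group, 307 CPM. Within ZXD the measure did not follow the markers: ZXD 4, at 0.17, had the lowest sum (490 CPM) and ZXD 3, at -0.02, had 581 CPM. The shift fitted over all genes at the markers' own lengths, 1601 bases for Clec4g to 9456 bases for Ptprb, lay between -0.20 and 0.17 on the log2 scale, where the markers' SD within CON was 0.15 to 1.14. The 10 genes of like pattern were 1388 bases (Fcgr2b), 1647 (Tspan7), 2121 (Sdpr), 3909 (Mmrn2), 4293 (Rasgrp3), 4358 (Flt4), 4945 (Adgrf5), 5304 (Cyyr1), 6690 (Sort1) and 10799 bases (Flt1) long.

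With that length trend taken out library by library, the same numbers of markers passed (1, 0 and 3). Without the 7 libraries below 0, leaving 2 CON, 2 HFD and 4 ZXD libraries, 57, 0 and 211 genes passed by edgeR for HFD against CON, ZXD against HFD and ZXD against CON, and 0 markers in each. For ZXD against CON the differences were then 0.65 for Lyve1, 0.66 for Stab2 and 0.71 for Egfl7 (adjusted p 0.122, 0.369 and 0.187, edgeR), and Egfl7 in HFD against CON was 0.59 (adjusted p = 0.442, edgeR). Over all settings but single libraries left out, this one included, ZXD against HFD differences varied in size. They ran from 0.43 to 1.35 for Stab2, 1.06 to 1.82 for Lyve1, 0.66 to 1.69 for Kdr and 0.63 to 1.25 for Tek. For Ptprb they were 0.81 to 2.22, for Eng 0.53 to 0.61 and for Pecam1 0.35 to 0.71. The length measure was unevenly spread over the groups, so it and group cannot be fully told apart. The part of RNA quality in the marker differences was not tested.

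**Figure D4:**
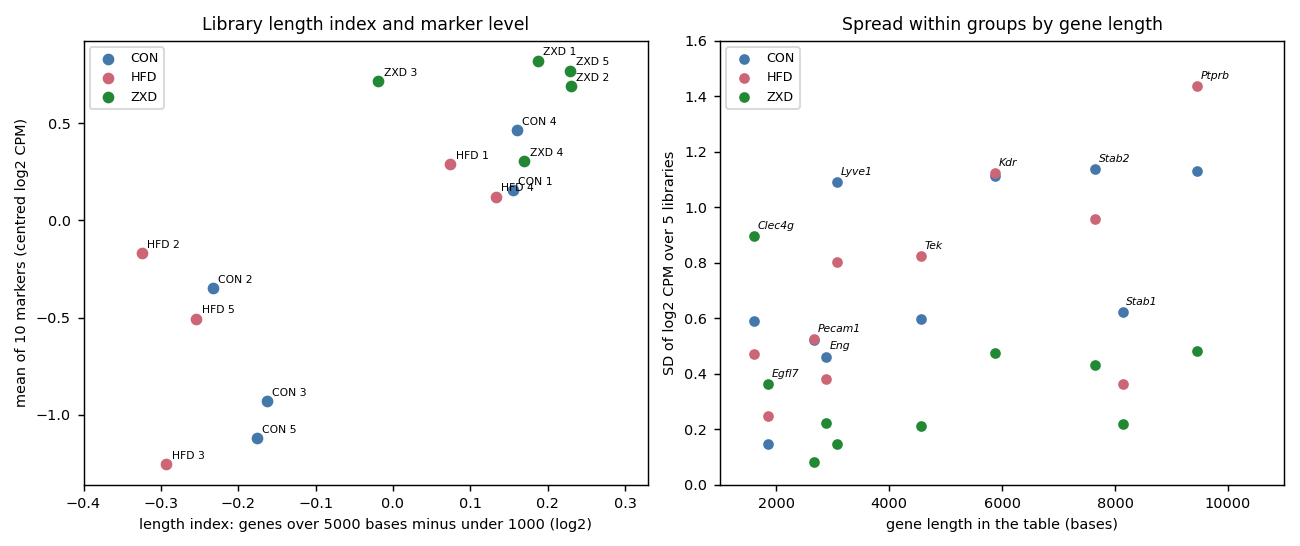
Left, the mean of the 10 markers in each library (centred log2 CPM) against the long-minus-short transcript measure of that library (log2); right, the SD of log2 CPM of each marker over the 5 libraries of each group against its gene length in bases. The 6 CON and HFD libraries with a measure below 0 lie at the lower left, and the ZXD points of spread lie lowest for all markers but Clec4g and Egfl7.

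Genes of other known roles gave the following counts by edgeR, to be read against the shares of all genes: 10% rose and 10.9% fell in HFD against CON, and 17.9% rose and 14.8% fell in ZXD against CON, with medians over all genes of 0.02 and 0.03. Some genes stand in more than 1 list, among them Flt4, Bmp2, Cdh5 and Tie1, so the counts of different lists are not independent. Of 21 tested genes known from sinusoidal endothelium beside the 10, 2 rose in HFD against CON (Wnt9b, a Wnt ligand, by 2.13, adjusted p = 0.00319, and the interleukin receptor Il1r1 by 0.84, adjusted p = 0.0167, edgeR) and 11 rose in ZXD against CON, with medians of 0.20 and 0.94, beside 10% and 17.9% of all genes that rose. The 11 included Oit3 (1.46, adjusted p = 0.008), the nuclease Dnase1l3 (1.0, adjusted p = 0.0148), Bmp2 (1.26, adjusted p = 0.0188, edgeR) and Fcgr2b. The count of 11 became 5 without CON 2, 4 without CON 3 and 7 without CON 5.

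Of 33 genes known from most endothelial cells, 3 rose in HFD against CON (Cldn5 by 1.91, Icam2 by 0.82 and Nos3 by 0.74, adjusted p 0.0424, 0.0493 and 0.0495, edgeR) and 21 rose in ZXD against CON, with medians of 0.37 and 1.08. All genes rose at 10% and 17.9%, so the HFD count was near the background. Cd93, a lectin-like membrane protein, rose from 9.35 to 49.8 CPM (2.41 ± 0.40, adjusted p = 0.00106, edgeR), the transcription factor Fli1 by 1.87 (adjusted p = 0.00323), and the adaptor She by 0.60 (adjusted p = 0.00605, edgeR). The 21 became 12 without CON 3 and 13 without CON 5, and the 3 became 0 to 5 as single libraries were left out. Among the leukocyte markers given below, Ptprc (18.4 to 134 CPM) and Itgam (2.05 to 50.1 CPM) also rose from CON to ZXD. The part of leukocytes in the rise of Cd93, Fli1 and the others of the 21 was not tested.

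Of 18 genes known from continuous or activated endothelium, 3 rose in HFD against CON and 11 in ZXD against CON. Their medians were 0.40 and 1.14, and the shares of all genes that rose were the same 10% and 17.9%. Entpd1, an ectonucleotidase, rose by 1.43 and 2.70 (adjusted p 0.0388 and 0.00127), the adhesion molecule Icam1 by 1.61 and 1.77 (adjusted p 0.0146 and 0.00616), and Plvap, the diaphragm protein of fenestrae, by 1.57 and 2.15 (adjusted p 0.0454 and 0.00814, edgeR). The 11 became 6 without CON 3 or CON 5, 7 without ZXD 3 and 5 without ZXD 4, and the 3 became 1 without CON 2, CON 3, CON 4, CON 5, HFD 2 or HFD 5. Icam1 and Entpd1 are also made by leukocytes.

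Of 12 Notch pathway genes 0 passed in HFD against CON by edgeR, and 5 rose in ZXD against CON (Nrarp by 2.76, Dll4 by 0.97 and Notch2 by 0.55, adjusted p 0.00862, 0.0147 and 0.0174, with Notch1 and Notch4); the 5 became 3 without CON 5, and all genes rose at 17.9%. Of 10 hyaluronan genes beside Stab2 and Lyve1, 1 rose and 3 fell in HFD against CON, and 5 rose and 2 fell in ZXD against CON, where 10% and 10.9%, and 17.9% and 14.8%, of all genes did. Cd44, the hyaluronan receptor of leukocytes, rose by 3.30 in HFD (adjusted p = 0.0172) and by 4.24 in ZXD (adjusted p = 0.00398, edgeR), while Itih1, a hepatocyte-made carrier of hyaluronan, fell by 1.04 and 1.18 (adjusted p 0.00171 and 0.000685, edgeR). The 5 became 3 without ZXD 4, and the 1 became 2 without HFD 3. Of 7 lymphatic genes, Ccl21 rose in HFD, and Ccl21 and Flt4 rose in ZXD, beside 10% and 17.9% of all genes; the count for HFD became 0 without HFD 2 and that for ZXD 1 without CON 2. In ZXD against HFD 0 genes of each of these lists passed by edgeR, with medians of 0.64 for the partners of Kdr and Tek, 0.25 for the BMP list, 0.63 for other sinusoidal genes, 0.61 for genes of most endothelium, 0.48 for continuous or activated endothelium, 0.17 for Notch, 0.52 for hyaluronan and 0.10 for lymphatic genes.

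**Figure D5:**
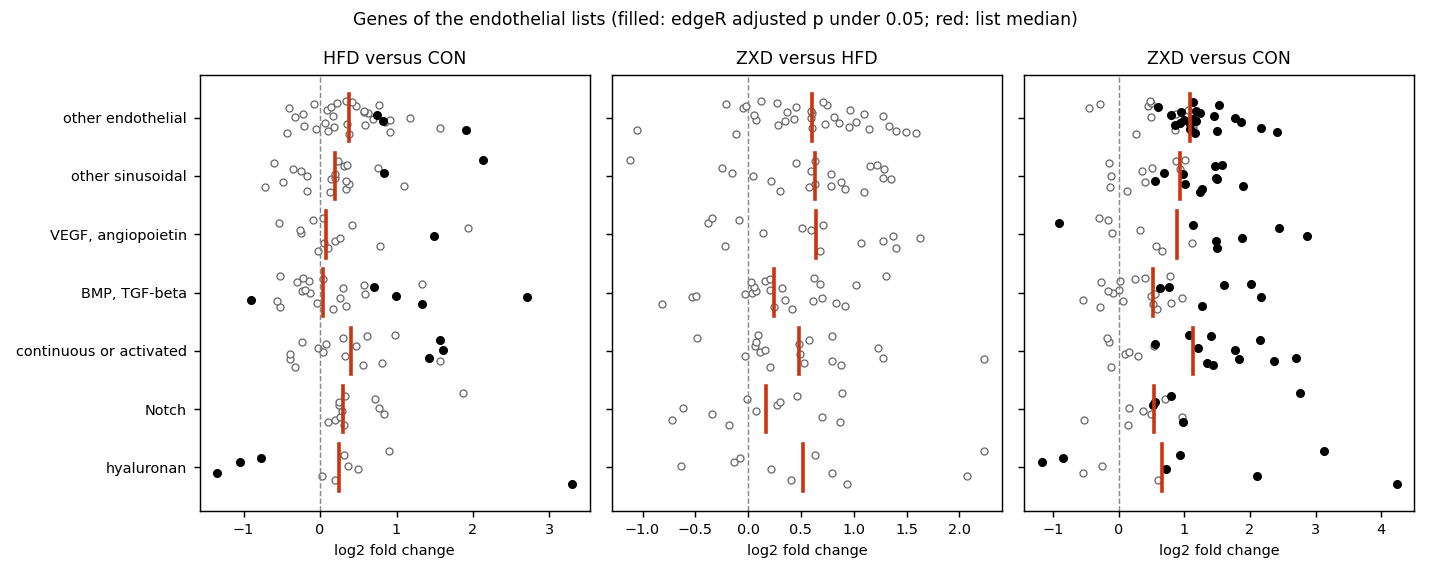
Log2 fold change of each tested gene of 7 lists in the 3 comparisons, with filled points for an edgeR adjusted p under 0.05, red bars at list medians and dashed lines at 0. The genes of most endothelial cells, in the top row, have medians of 0.37, 0.61 and 1.08 from left to right, and 21 of 33 are filled in ZXD against CON.

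Markers of other liver cells are given beside the same shares of all genes (10% higher and 10.9% lower in HFD, 17.9% higher and 14.8% lower in ZXD). Of 16 macrophage and Kupffer cell markers, 4 rose in HFD and 12 in ZXD against CON, with medians of 0.90 and 1.76, and their sum was 843 to 1893 CPM in CON, 859 to 4156 CPM in HFD and 1280 to 5501 CPM in ZXD. Each of the 16 was detected in all 15 libraries. Cd74 alone averaged 100, 1035 and 1451 CPM in CON, HFD and ZXD, a large part of the sums in HFD and ZXD. Mpeg1 averaged 614, 440 and 681 CPM in the same order, a large part of the sum in CON. The sums thus weigh different genes in different groups. In HFD against CON Clec4f (-0.07), Mpeg1 (-0.48), Cd163 (-0.69) and Vsig4 (-1.09) were below 0 and did not pass (adjusted p 0.0605 to 0.887, edgeR). The others of the 16 were above 0 in that comparison. In CON 1 to CON 5 the macrophage sum was 1893, 1278, 884, 1590 and 843 CPM where the 10 endothelial markers summed to 420, 307, 196, 538 and 164 CPM, so that CON 1 and CON 4 were high in both and CON 3 and CON 5 low in both. In HFD 1 to HFD 5 it was 1872, 4156, 2145, 859 and 3001 CPM beside 439, 307, 149, 378 and 254 CPM. In ZXD 1 to ZXD 5 it was 2235, 1280, 5477, 5501 and 3757 CPM beside 703, 661, 581, 490 and 651 CPM. The sums went together in CON and did not in HFD or ZXD, where HFD 2 and ZXD 4 had the highest macrophage sums. The count of 4 became 8 without HFD 4. The part of macrophages in the levels of Stab1, Lyve1 and the other markers was not tested.

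Among 12 lymphocyte markers (T, B and NK cells), 8 rose in HFD and 11 rose in ZXD against CON, with sums of 23.2 to 61.3, 51.2 to 173 and 68.0 to 465 CPM in CON, HFD and ZXD. Of 3 tested neutrophil markers 2 rose in each, with sums of at most 29.1 CPM, and the defining markers Mpo (0 counts) and Elane (at most 1 count) were at or near 0, as was Gzmb of the lymphocyte list (0 counts). Of 12 hepatocyte markers 4 fell in HFD and 5 in ZXD, and their sum was 179800 to 227000 CPM in CON, against 93440 to 124100 CPM for HFD and 71570 to 125300 CPM for ZXD. Alb alone averaged 104300, 39380 and 33770 CPM in CON, HFD and ZXD, a large part of these sums. In HFD against CON Fga (0.48) and Fgb (0.26) were above 0 and did not pass (adjusted p 0.164 and 0.417, edgeR), and the others were below 0. Of 13 stellate cell markers 2 fell in HFD, and 2 rose and 1 fell in ZXD, with sums of 477 to 775, 333 to 814 and 497 to 836 CPM, counts near those shares. Of 8 bile duct markers 3 rose in HFD and 2 in ZXD, with sums of 38.7 to 55.7, 69.6 to 126 and 60.1 to 101 CPM. Of 2 platelet markers 0 passed by edgeR, and of 5 erythroid markers 1 fell in each. As single libraries were left out, the counts of genes that rose ran from 3 to 9 for lymphocytes, 1 to 2 for neutrophils and 2 to 5 for bile ducts in HFD, and from 0 to 2 for stellate cells and 1 to 2 for bile ducts in ZXD. In ZXD against HFD 0 genes of these lists passed by edgeR. Their medians were 0.56 for macrophages, 0.69 for lymphocytes, 0.78 for the 2 platelet markers and 0.16 for erythroid markers. They were 0.03 for stellate cells, -0.08 for hepatocytes, -0.26 for neutrophils and -0.70 for bile ducts, beside 0.02 over all genes. A positive median was thus not particular to the endothelial lists. The part of these cells in the endothelial values was not tested.

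Levels of different markers were compared per length, as TMM-scaled reads per kilobase (RPKM). In CON the order was Eng (27.7 ± 9.77), Lyve1 (15.8 ± 9.51), Kdr (9.44 ± 6.49), Pecam1 (7.10 ± 2.51), Clec4g (6.62 ± 2.62), Egfl7 (4.29 ± 0.43), Stab1 (4.11 ± 1.72), Stab2 (3.55 ± 2.85), Tek (3.08 ± 1.39) and Ptprb (3.03 ± 2.32 RPKM). In HFD Eng (20.4 ± 4.71 RPKM) and Lyve1 (13.4 ± 6.57 RPKM) also led and Tek (2.61 ± 1.23 RPKM) and Ptprb (2.12 ± 1.75 RPKM) were last. In ZXD Lyve1 led with 39.5 ± 4.18 RPKM, before Eng with 30.7 ± 4.82 and Kdr with 23.0 ± 6.85 RPKM, and Tek was last with 5.59 ± 0.79 RPKM. Neighbours in these orders overlapped between libraries, except Kdr over Pecam1 (11.2 ± 0.63 RPKM) in ZXD.

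The balance between markers was examined as the log2 ratio of each RPKM to that of Pecam1 in the same library, in which a change common to both genes cancels. Lyve1 stood at 0.94 ± 0.60 in CON, 0.80 ± 0.36 in HFD and 1.81 ± 0.14 in ZXD, so that ZXD did not overlap HFD (difference 1.02) or CON (0.87). Each of those differences had an exact two-sided permutation p of 0.00794, the smallest that 5 against 5 libraries allow, and an adjusted p of 0.0536 over 27 such tests (Benjamini-Hochberg). The Tek ratio in ZXD against HFD (0.55) and the Clec4g ratio in HFD against CON (0.63) had the same exact p and adjusted p, also without overlap. For Clec4g the groups barely parted, at 0.009 in CON 2 and 0.015 in HFD 4, and HFD 5 was highest at 1.47. The Eng ratio differed by -0.53 between ZXD and CON (exact permutation p = 0.0238, adjusted p = 0.107). None of the 27 passed the adjustment, and 9 had an unadjusted exact p under 0.05. Pecam1 enters all 27 ratios, and the part of leukocytes and platelets in its level was not tested.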

How the data were processed

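Liver RNA of 15 libraries (3 groups of 5) was analysed from 1 table of 21576 genes. The authors deposited whole-number read counts, FPKM values and the gene length per gene and library, per the file headers. The deposited FPKM values equalled the count divided by length and by the library's total for 100% of values above 0 (tolerance 0.01%), so tests used the counts. The submitters' processing notes name edgeR. The aligner, genome build, annotation and strand setting were not given in the sources used here, and the simvastatin rats of the labels are not analysed here.

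Counts were scaled with TMM factors and filtered with filterByExpr (minimum count 10, minimum total 15), which left 13163 genes. All libraries entered 1 edgeR 4.0.16 quasi-likelihood fit (robust, group as sole term, 12 residual degrees of freedom, R 4.3.3), with Benjamini-Hochberg adjustment over all genes tested and calls at an adjusted p under 0.05. Log2 CPM carried a prior count of 2. Alternatives were other scaling factors, filters, library subsets, a replicate block, limma 3.58.1 voom and DESeq2 1.42.0; the length trend, the 7 libraries left out for it, and list counts under each setting were chosen after seeing the data. The scripts were tested on simulated data. Intervals and the 3-count limit cover counting error or library spread only.

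The 10 markers, the 8 endothelial and partner lists and the 8 lists of markers of other cell types were chosen with earlier results of these data known. Named genes were all markers, up to 3 called genes per list with the smallest adjusted p, and fixed ligands and partners; other called genes are named where a count was 6 or fewer. Genes of like pattern were the 10 with the highest r. Antisense and overlapping transcripts may share counts, as strand use is unknown. Promoter and microRNA sequences are from RefSeq tables of GRCr8.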

Additional observations from a re-analysis of the deposited data

How the results depend on the processing

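Egfl7 kept its calls against CON under each scaling, filter and test and without any single library, except without the 7 libraries of negative length measure (values in the report). On library totals 5895, 0 and 6674 genes passed for HFD against CON, ZXD against HFD and ZXD against CON, with 2 markers (Clec4g and Egfl7) and 10 markers in the first and last. Higher calls made up 1322 of 2758 for HFD against CON, 1908 of 2948 with upper-quartile factors and 5390 of 5895 on library totals. Without the libraries of negative length measure 57 and 211 genes and 0 and 0 markers passed. DESeq2 called 348 genes and 1 marker for ZXD against HFD, and 4922 genes and 6 markers for ZXD against CON. In that last comparison 5 markers passed with upper-quartile factors, with only the 2 groups compared and with limma voom, beside 4301, 3949 and 3321 of all genes.

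Leaving out single libraries gave 1697 to 3235 genes for HFD against CON (fewest without CON 3, CON 4, HFD 2 and HFD 5), 0 to 7 for ZXD against HFD (7 without HFD 1, 1 without HFD 3) and 3037 to 4680 for ZXD against CON. It gave 1, 0 and 1 to 6 markers.

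Signs turned only for differences that had not passed. For HFD against CON these were Lyve1 (0.20), Kdr (0.40) and Tek (0.19) on library totals, Kdr with upper-quartile factors (0.055), and Clec4g (-0.016) and Pecam1 (-0.13) without the libraries of negative length measure. For ZXD against HFD it was Clec4g, with upper-quartile factors (-0.017), limma voom (-0.12) and without those libraries (-0.098), and for ZXD against CON Clec4g (-0.11) and Eng (-0.11) without them. Single libraries turned Stab1 (-0.13 to 0.31), Kdr (-0.32 to 0.26), Tek (-0.40 to 0.027) and Pecam1 (-0.11 to 0.21) for HFD against CON and Clec4g (-0.26 to 0.27) for ZXD against HFD. The cause was not tested.

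No label ties the replicate numbers together, and the libraries were not taken as paired. Deviations of 15 same-numbered pairs over all genes correlated at -0.55 to 0.26, with 4 above 0.1, and 2 libraries correlated best with their own number. Between CON and HFD, numbers 1, 2 and 3 correlated at 0.24, 0.22 and 0.26 and numbers 4 and 5 at -0.001 and -0.078, and the markers were high in libraries 1 and 4 of both groups. With a replicate block 7 markers passed for ZXD against CON (Kdr, Tek, Ptprb and Pecam1 were added), 1 for HFD against CON and 0 for ZXD against HFD. Of all genes, 3466, 1909 and 0 passed with that block in the same order. At this depth the lowest marker value rested on 56 counts, and a limit of 3 counts lay below every marker value.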
